A study of Mus musculus with 6 samples.

Results

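In the epidermis of newborn mice, 10 genes that build, regulate or support pigment cells were examined: the melanogenic enzymes Dct, Tyrp1 and Tyr, the melanosome proteins Pmel, Mlana and Slc45a2, the transcription factors Mitf and Sox10, and the receptor Kit with its ligand Kitl. They were chosen by name and found through the RefSeq accession that each array probe carries. Of the 10 genes, 8 had a probe whose accession matched, and 7 could be tested among the 12824 genes tested in all. Kit and Mlana were matched to no probe and are not analysed here, and Tyr was not well above background on any array.

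Gene expression was measured with 1-colour Agilent arrays on total RNA from epidermis at postnatal day 0. The 3 AhRCA mice expressed a constitutively active aryl hydrocarbon receptor (AhR), a ligand-activated transcription factor, from the keratin 14 promoter, which drives expression in basal keratinocytes and not in melanocytes. The 3 wild-type (WT) mice were their littermates, 1 WT and 1 AhRCA mouse in each of 3 samplings. The strain was a mix by the labels, and no coat colour was given. The comparison asks which epidermal transcripts differ when AhR is constantly active in keratinocytes.

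Melanocytes arise from the neural crest and lie among keratinocytes in the epidermis and hair bulbs, where they package melanin into melanosomes and pass these on. Mitf is the central transcription factor of the lineage. It binds M-boxes, an extended form of the CATGTG element, in the promoters of pigment enzyme genes. Keratinocytes and dermal cells make Kitl, the ligand that the Kit receptor of melanoblasts needs for survival and migration, so that in this model the transgene is active in cells that feed the melanocyte rather than in the melanocyte itself. Whole epidermis was assayed, and in such RNA fewer melanocytes and less RNA per melanocyte cannot be told apart.

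The AhR target genes Cyp1a1 and Cyp1b1, which encode xenobiotic-metabolizing enzymes, and Ahrr, which encodes the AhR repressor, separated the genotypes without overlap. They rose by log2 fold changes of 7.07 ± 0.58, 5.34 ± 0.14 and 5.91 ± 0.35 (SE, n = 3 per group; limma, Benjamini-Hochberg adjusted p up to 0.00470), and all 5 AhR target genes tested rose. Pairs 1 and 2 shared slide 1 and pair 3 lay on slide 2. Xist, transcribed from the inactive X chromosome, stood between 4.43 and 4.66 on slide 1 and at -4.20 and -7.14 on slide 2, whereas the Y-linked Ddx3y stood between -7.29 and -6.84 on slide 1 and at 1.65 and 1.43 on slide 2. Slide, litter and sex therefore coincided in pair 3 and cannot be told apart there, although each was balanced between the genotypes. The share of spots well above background ranged from 56.2% to 61.3% among the arrays, with 0 saturated. All 12 keratinocyte markers were well above background on all 6 arrays. All levels below are log2 processed intensity minus the 75th percentile of the array, so that they serve to compare arrays for 1 probe and not 1 gene with another.

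No difference between AhRCA and WT epidermis was detected in any of the 7 tested pigment cell genes (limma, adjusted p between 0.481 and 0.999). None of the 7 had an unadjusted p under 0.05 either, and 12.2% of all genes did. Of all 12824 genes 2.18% passed an adjusted p of 0.05, 211 lower and 68 higher in AhRCA. The estimates lay between -0.46 for Mitf and 0.33 for Tyrp1, 5 of 7 were below 0, and their median was -0.18 against 0.0013 for all genes. In 0 of 7 genes were the genotypes free of overlap, and 8.84% of all genes were lower and 7.52% higher in AhRCA without overlap. With so few genes, counts of 0 at these shares do not set the pigment cell genes apart from all genes. Blocking on litter, 3.88% of all genes passed and the 7 genes had adjusted p between 0.245 and 0.960. With slide as a block 4.2% of all genes passed (2.91% as lower), on slide 1 alone 1.01% did, and 0 of the 7 genes passed in either fit. Of the melanocyte genes, Dct, Tyrp1, Pmel, Mitf, Sox10 and Slc45a2 were well above background on all 6 arrays.

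**Figure D1:**
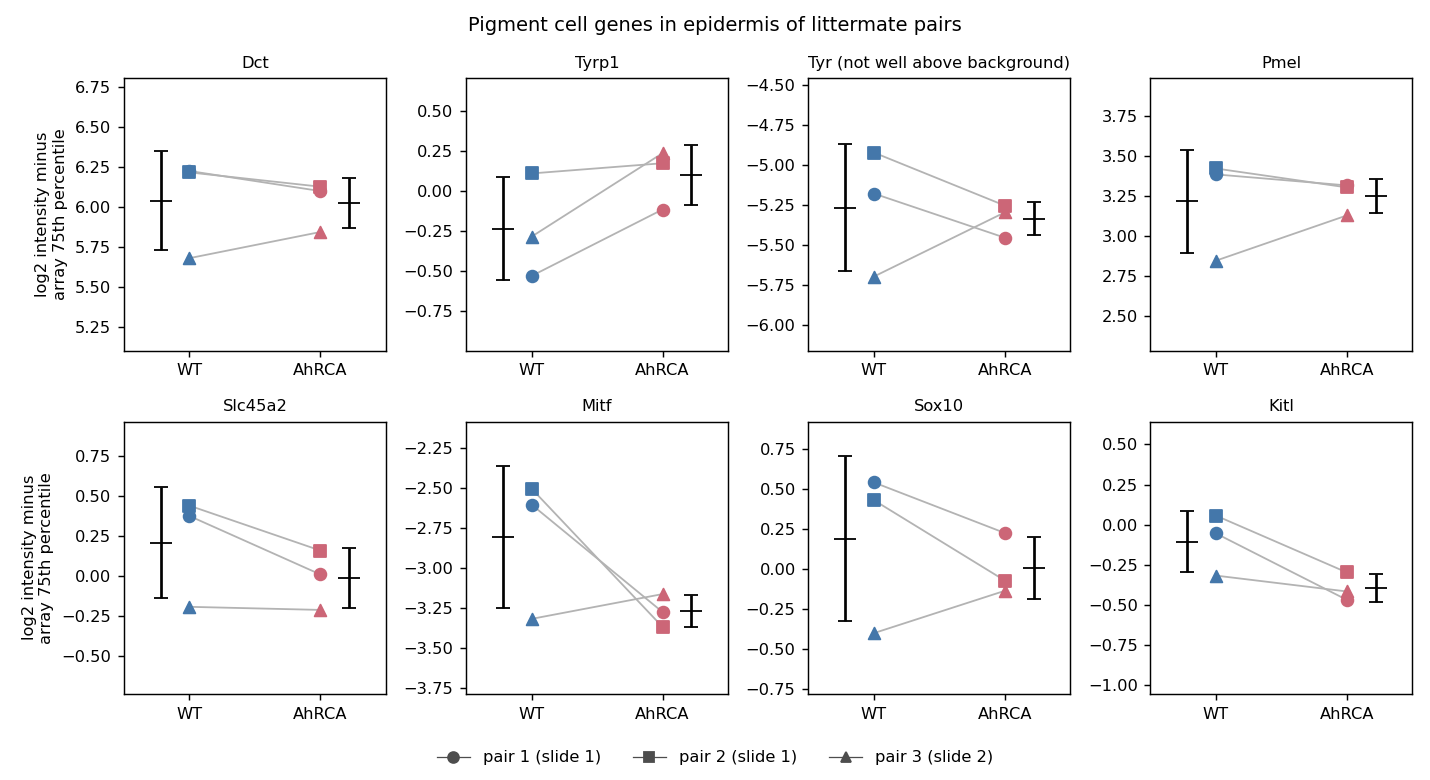
Level of each pigment cell gene (log2 intensity minus the array's 75th percentile, y axis; every panel spans the same range) in WT and AhRCA epidermis, with grey lines joining littermates and black bars giving the mean ± SD of 3 arrays. WT 3 is the lowest WT array in all panels except Tyrp1, and WT and AhRCA values overlap in every panel.

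The 3 melanogenic enzymes belong to 1 family. Tyrosinase (Tyr) starts melanin synthesis, dopachrome tautomerase (Dct) and Tyrp1 act on later intermediates, and Dct is switched on early, in migrating melanoblasts. The 250 bases before a start site of each gene were taken from RefSeq promoter windows (GRCm38.p6) to show the element that the 3 genes share. Each is written 5′ to 3′ in the direction of transcription, and capitals mark the M-box core TCATGTGCT, which contains CATGTG.

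Dct, chr14:118052247-118052496, minus strand: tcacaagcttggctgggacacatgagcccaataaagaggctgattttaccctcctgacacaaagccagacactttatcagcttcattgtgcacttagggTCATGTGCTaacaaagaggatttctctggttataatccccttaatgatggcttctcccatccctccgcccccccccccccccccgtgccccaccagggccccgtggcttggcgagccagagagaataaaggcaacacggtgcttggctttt
Tyrp1, chr4:80833963-80834212, plus strand: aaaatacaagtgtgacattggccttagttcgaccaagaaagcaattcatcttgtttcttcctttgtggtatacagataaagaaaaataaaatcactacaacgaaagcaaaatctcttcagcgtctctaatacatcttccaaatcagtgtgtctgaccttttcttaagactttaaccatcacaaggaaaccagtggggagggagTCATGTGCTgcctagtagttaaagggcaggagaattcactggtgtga
Tyr, chr7:87493513-87493762, minus strand: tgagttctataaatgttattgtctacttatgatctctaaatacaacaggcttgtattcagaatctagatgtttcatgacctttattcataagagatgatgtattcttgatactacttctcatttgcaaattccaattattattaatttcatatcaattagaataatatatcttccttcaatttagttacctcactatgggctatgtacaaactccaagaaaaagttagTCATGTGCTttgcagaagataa

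The core began 151 bases before the start site in Dct, 47 bases before it in Tyrp1 and 22 bases before it in Tyr, each time on the transcribed direction's strand. Searched on both strands, it was present in 110 of 32851 such windows (0.335%), and CATGTG in 12.2%. The 3 windows of Mitf and the windows of Kit and Kitl, the other named genes with a window, held no TCATGTGCT. A match describes these letters and does not show that a factor was bound.

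No difference in Dct was detected between the genotypes. Its brighter probe stood at log2 levels of 6.22, 6.22 and 5.68 in WT 1 to 3 and at 6.10, 6.13 and 5.84 in AhRCA 1 to 3. The lowest array of each genotype was that of pair 3, and the genotypes overlapped. The means were 6.04 ± 0.31 (SD, n = 3) in WT and 6.02 ± 0.16 in AhRCA, a log2 difference of -0.017 with a 95% interval from -0.45 to 0.42 (limma, adjusted p = 0.999). The other Dct probe, dimmer but well above background on all 6 arrays, had levels of 4.16, 4.19 and 3.66 in WT and 4.14, 4.08 and 3.83 in AhRCA. Its difference of 0.0077 lay as near to 0 as that of the first probe, and the same 2 arrays, WT 3 and AhRCA 3, were lowest.

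Tyrp1 was the only 1 of the 7 genes whose level was higher in the AhRCA mouse of all 3 pairs, but it did not pass the test. Its levels were -0.53, 0.11 and -0.28 in WT 1 to 3 and -0.11, 0.17 and 0.24 in AhRCA 1 to 3. WT 2 stood above AhRCA 1, so the genotypes overlapped, and the pairs differed by 0.42, 0.064 and 0.52. The estimate was 0.33 ± 0.19 (SE), with a 95% interval from -0.12 to 0.79 (limma, adjusted p = 0.658). Its probe was printed 10 times per array, and the spots of 1 array varied by a coefficient of variation between 3.32% and 6.81%. Spots within an array thus spread by 0.048 to 0.097 on the log2 scale, and the 3 WT arrays had an SD of 0.32.

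Tyr gave no usable level in newborn epidermis of either genotype. The mean intensity of its 10 spots was 20.2, 22.5 and 14.1 in WT 1 to 3 and 16.9, 17.1 and 19.6 in AhRCA 1 to 3. Of the 10 spots, 0, 5 and 0 were well above background in WT and 2, 1 and 4 in AhRCA, so that on no array were most of its spots well above background. No fold change is given for Tyr, since neither genotype had an array on which it was well above background. The M-box core shown above thus precedes 2 genes measured on all 6 arrays, Dct and Tyrp1, and 1 gene measured on none.

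**Figure D2:**
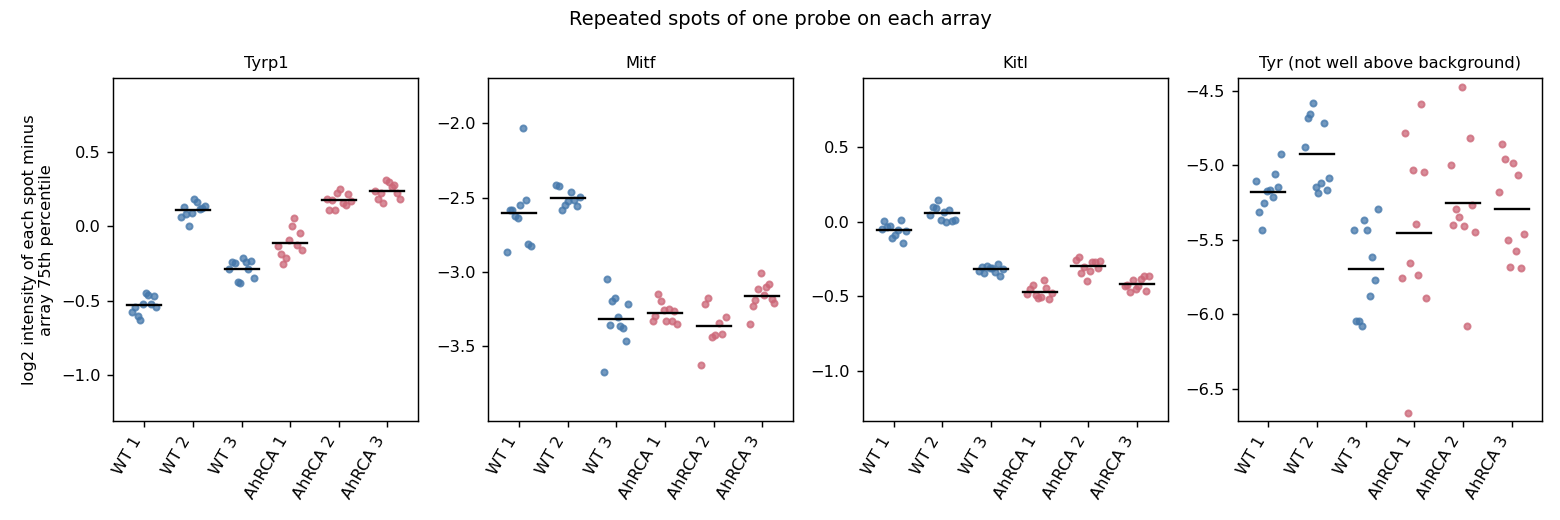
Level of every usable spot (log2 intensity minus the array's 75th percentile, y axis) of the probes printed 10 times, on each of the 6 arrays, with the array mean as a black line. Spots of Tyrp1, Mitf and Kitl cluster around their array's mean, the Mitf spots of WT 1 and WT 2 lie above all other Mitf spots, and the spots of Tyr scatter widely.

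Pmel forms the fibrils on which melanin is laid down, and Slc45a2 is a transporter-like membrane protein of the melanosome whose loss lightens the coat. Pmel stood at 3.39, 3.42 and 2.85 in WT 1 to 3 and at 3.32, 3.31 and 3.13 in AhRCA 1 to 3. As for Dct, the array of pair 3 was the lowest of each genotype. The means of 3.22 ± 0.32 and 3.25 ± 0.10 differed by 0.032, with a 95% interval from -0.39 to 0.46 (limma, adjusted p = 0.999).

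Slc45a2 stood at 0.37, 0.44 and -0.19 in WT 1 to 3 and at 0.0087, 0.16 and -0.21 in AhRCA 1 to 3. Again WT 1 and WT 2 were the highest and the arrays of pair 3 the lowest. The AhRCA mouse was lower by 0.37 in pair 1, by 0.28 in pair 2 and by 0.019 in pair 3. The estimate of -0.22 ± 0.20 (SE) had a 95% interval from -0.70 to 0.26 and did not pass (limma, adjusted p = 0.902).

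Mitf had the lowest estimate of the 7 genes, and its pairs differed from each other the most. Its levels were -2.60, -2.50 and -3.32 in WT 1 to 3 and -3.27, -3.37 and -3.16 in AhRCA 1 to 3. WT 1 and WT 2 lay above all AhRCA arrays and WT 3 among them. The difference was -0.67 in pair 1, -0.86 in pair 2 and 0.15 in pair 3. Over all arrays the estimate was -0.46 ± 0.22 (SE), with a 95% interval from -0.997 to 0.077 (limma, adjusted p = 0.532). The probe was printed 10 times, and spots of 1 array had an SD between 0.059 and 0.24 on the log2 scale. On slide 1 alone the estimate was -0.77 (adjusted p = 0.0632), and without WT replicate 3 it was -0.71 (adjusted p = 0.0605), so that neither fit passed. The second Mitf probe was well above background on 0 of 6 arrays. With normexp background correction the estimate shrank to -0.22.

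Mast cells also depend on Mitf and Kit. Of 13 mast cell genes on the array 3 were well above background on at least 3 arrays, the chymase gene Cma1, the histamine-forming enzyme gene Hdc and the receptor gene Mrgprb2, and none passed. The defining mast cell genes Cpa3, Mcpt4, Fcer1a and Ms4a2 were not kept as well above background. The summed linear level of all 13 genes, the dim ones included, was 0.390 to 0.488 in WT and 0.322 to 0.348 in AhRCA. Since only 3 of the 13 were kept, much of this sum is signal near background, and it does not measure mast cell content. Hdc, well above background on 1 WT array, was highest there, in WT 1, and lay between -5.36 and -4.19 on the other 5 arrays. The part of mast cells in the Mitf values was not tested. Hdc had a log2 difference of -0.64 ± 0.85 (SE) and Mrgprb2 of -0.26 ± 0.34 (limma, adjusted p = 0.981 for both).

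Sox10 acts upstream of Mitf in the neural crest and is also a factor of Schwann cells. It stood at 0.54, 0.43 and -0.40 in WT 1 to 3 and at 0.22, -0.073 and -0.14 in AhRCA 1 to 3. WT 3 was the lowest of all 6 arrays, and WT 1 and WT 2 were the highest. The estimate was -0.18 ± 0.26 (SE), the widest error of the 7 genes, with a 95% interval from -0.81 to 0.45 (limma, adjusted p = 0.991). The second Sox10 probe was well above background on WT 1, WT 2 and AhRCA 1, the 3 arrays on which the first probe was brightest, and had an estimate of -0.25 ± 0.40.

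Of 12 tested genes of Schwann cells and nerve, 1 fell, 0 rose, and the median was -0.23. An unadjusted p under 0.05 was found in 5 of the 12 (12.2% of all genes), and 5 were lower in AhRCA without overlap (8.84% of all genes) and 1 higher (7.52%). Gfra3, the artemin co-receptor, fell by 2.07 on the log2 scale (SE 0.27; limma, adjusted p = 0.0167), a size that rests on AhRCA values of which 1 of 3 was well above background. The call was lost when any 1 AhRCA array was left out (adjusted p up to 0.0848) and under normexp, where the log2 difference was -0.83 (adjusted p = 0.0716). Ngfr, a neurotrophin receptor of nerve and glia, had a difference of -0.39 ± 0.13 (limma, adjusted p = 0.265) and S100b, a glial calcium-binding protein, of -0.17 ± 0.13 (0.849), values given outside the rule for named genes. The Schwann cell gene Cdh19 was not kept as well above background. The summed linear level of all 14 genes was 36.3 to 44.7 in WT and 30.7 to 35.1 in AhRCA. Most of this sum is the brightest probe, that of Egr2, so it does not measure Schwann cell content. Egr2 stood at 4.72, 4.77 and 5.04 in WT 1 to 3 and at 4.44, 4.62 and 4.35 in AhRCA 1 to 3. Its difference of -0.37 did not pass (limma, adjusted p = 0.318). The part of Schwann cells in the Sox10 values was not tested.

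Kitl, the keratinocyte-side member, was lower in the AhRCA mouse of every pair without passing the test. Its levels were -0.056, 0.056 and -0.32 in WT 1 to 3 and -0.47, -0.30 and -0.42 in AhRCA 1 to 3. The genotypes overlapped by a narrow margin, as WT 3 stood just under AhRCA 2. The pairs differed by -0.42, -0.35 and -0.099. The estimate was -0.29 ± 0.13 (SE), a 1.22-fold lower level with a 95% interval from -0.61 to 0.028 on the log2 scale (limma, adjusted p = 0.481). The 10 spots of its probe had a coefficient of variation between 1.64% and 3.40% within an array. A second Kitl probe was likewise well above background on 0 of 6 arrays.

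The window before the Kitl start site is shown because it holds the core letters that AhR and its partner Arnt recognise, GCGTG, in capitals. As above it comes from RefSeq (GRCm38.p6).

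Kitl, chr10:100015571-100015820, plus strand: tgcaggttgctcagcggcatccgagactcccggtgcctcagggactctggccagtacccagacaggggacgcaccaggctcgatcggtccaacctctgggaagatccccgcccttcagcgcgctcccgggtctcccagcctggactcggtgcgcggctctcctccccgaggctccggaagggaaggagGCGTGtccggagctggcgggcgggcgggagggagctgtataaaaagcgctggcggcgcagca

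The match began 62 bases before the start site. GCGTG on either strand was present in 28.2% of all such windows, in both windows of Kit and in none of those of Dct, Tyrp1, Tyr and Mitf. These 5 letters are common, and no binding was measured here.

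**Figure D3:**
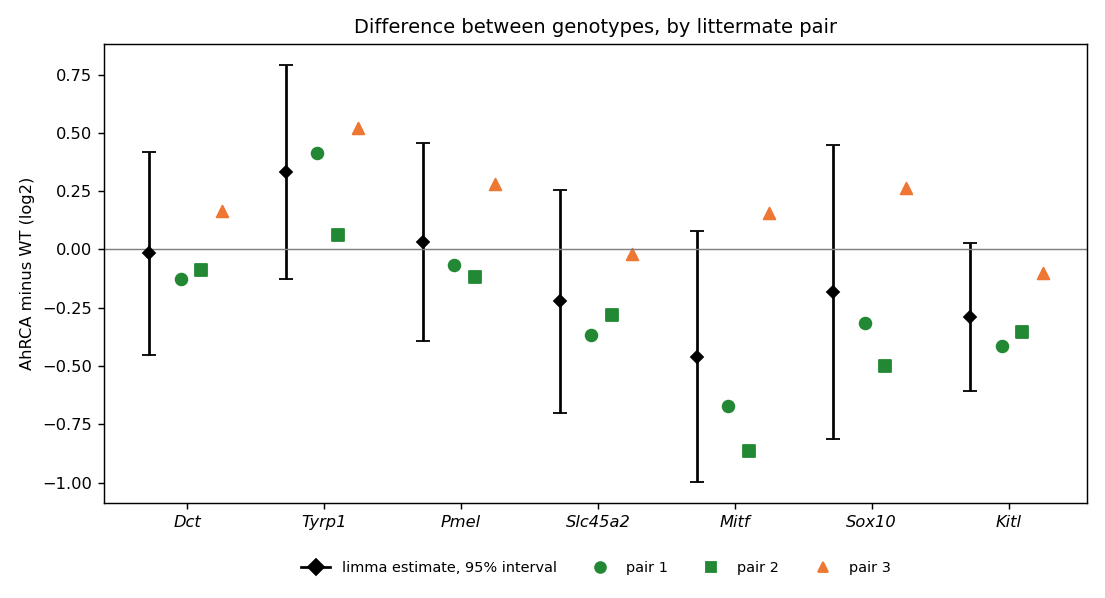
AhRCA minus WT on the log2 scale for the 7 tested genes. Black diamonds with bars are the limma estimates with 95% intervals, and coloured points are the 3 littermate pairs; every interval includes 0, and pair 3 is the highest point for all 7 genes.

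The 3 pairs gave different values. In Dct, Pmel, Mitf and Sox10 the AhRCA mouse was lower in pairs 1 and 2 and higher in pair 3, which was so in 4 of 7 genes and in 10.4% of all genes. This pattern was seen in the data and then counted. In all 7 genes the difference of pair 3 lay above those of both other pairs, against 31.5% of all genes. Pair 3 is 1 mouse per genotype and the 7 genes were read on the same arrays. Such counts of genes, here and below, therefore do not stand for independent replicates. The all-gene medians of the pairs were 0.012, 0.031 and -0.042, so that the difference of pair 3 lay above the bulk of its own pair in 6 of 7 genes, Kitl being the exception at -0.099.

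A test of the difference between slides (limma, genotype by slide) did not separate the pairs for any of the 7 genes after adjustment. For Mitf pair 3 differed from pairs 1 and 2 by 0.92 ± 0.16 (SE; unadjusted p = 0.00366, adjusted p = 0.492). Sox10 had 0.67 ± 0.23 (unadjusted p = 0.0424, adjusted p = 0.496) and Pmel 0.38 ± 0.13 (unadjusted p = 0.0468, adjusted p = 0.498). An unadjusted p under 0.05 was found in 3 of 7 genes and in 9.98% of all genes, and an adjusted one in 1 of 12824 (0.0078%), the olfactory receptor gene Olfr638, named after its values were seen. Slide 2 holds 1 mouse per genotype.

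Levels themselves differed between slides in part of the set. WT 3 lay below the mean of WT 1 and WT 2 by 0.54 in Dct, 0.56 in Pmel, 0.60 in Slc45a2, 0.76 in Mitf and 0.89 in Sox10 on the log2 scale. AhRCA 3 lay below the other AhRCA arrays by 0.27 in Dct, 0.18 in Pmel, 0.30 in Slc45a2 and 0.21 in Sox10, but 0.16 above them in Mitf. With genotype in the fit, slide 2 fell by 0.40 ± 0.092 (SE) in Dct and 0.45 ± 0.11 in Slc45a2 (limma, adjusted p = 0.0459 and 0.0492), a comparison added after the values were seen. Over all genes 14.5% passed this comparison, 8.04% as lower on slide 2. Pmel (adjusted p = 0.0755), Sox10 (0.0988), Mitf (0.364), Tyrp1 (0.848) and Kitl did not pass. In both genotypes 5 of 7 genes were lower on slide 2, Dct, Pmel, Slc45a2, Sox10 and Kitl, against 43.5% of all genes.

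The wider machinery of pigmentation was read from further lists. Of 30 genes of melanosome formation and transport, all tested, 0 rose and 0 fell, with a median of -0.016 (2 had an unadjusted p under 0.05). The largest differences were those of Slc7a11, the cystine transporter that pheomelanin synthesis draws on, with 1.08 ± 0.42 (SE; limma, adjusted p = 0.351), and of Trpm1, a Mitf-dependent channel gene, with -0.58 ± 0.37 (adjusted p = 0.735). In the fit blocked on litter Slc7a11 rose (adjusted p = 0.0288), but with slide as a block it did not pass (0.156). Slc7a11 was higher in the AhRCA mouse of each pair, by 1.04, 1.38 and 0.83, although the genotypes overlapped. Trpm1 differed by -1.53, -0.13 and -0.083 in pairs 1 to 3, and without AhRCA replicate 1 its estimate was -0.22. Vps33a, a subunit of endosomal tethering complexes, had 0.45 ± 0.13 (limma, adjusted p = 0.173, and 0.0620 blocked on litter) and rose with slide as a block (adjusted p = 0.0331). It is named after its values were seen.

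Of 16 further transcription factors of the lineage 12 were tested and 0 passed, with 0 at an unadjusted p under 0.05 and a median of -0.016. The largest differences were 0.27 ± 0.18 for Zeb2 and -0.24 ± 0.18 for Foxd3 (limma, adjusted p = 0.748 and 0.825), the latter well above background on 2 WT arrays and 1 AhRCA array. Pax3, which acts with Sox10 on Mitf, had 0.14 ± 0.28, a value given outside the rule for named genes.

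Of 8 tested receptors and surface genes of melanocytes 1 fell, 0 rose, and the median was -0.20. Fzd4, a Wnt receptor that many skin cell types use, exceeded background on all WT arrays but on no AhRCA array, a level at least 2.50-fold lower (limma, adjusted p = 0.0195). Its probe thus passed the filter of 3 arrays through the WT arrays alone. The bound sets the WT mean against the lowest signal called well above background on each AhRCA array. The call was lost without WT replicate 1 or 2 or AhRCA replicate 1 or 3 (adjusted p up to 0.0734). It was also lost on slide 1 alone (adjusted p = 0.0882) and with no filter on dim probes (0.0509). Under normexp the log2 difference was -0.65 (adjusted p = 0.0530), smaller than the bound, which holds only for the processed intensities used here. The receptors best known from melanocytes, Ednrb and Mc1r, had 0.0045 ± 0.21 and -0.45 ± 0.25 (adjusted p = 0.999 and 0.648), values given outside the rule.

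Of 16 tested keratinocyte and skin factors acting on melanocytes 0 passed, 4 had an unadjusted p under 0.05 and the median was 0.049. Sfrp1, a secreted Wnt antagonist, had -2.87 ± 0.53 (limma, adjusted p = 0.0515) and stood lower in AhRCA without overlap. Without AhRCA replicate 1, it fell by 3.53 (adjusted p = 0.00265), and it also passed under median scaling (0.0471) and with normexp background correction (0.0178). Dkk4, another Wnt antagonist, had 1.56 ± 0.64 (adjusted p = 0.396), with 3.64 in pair 3 and 0.048 in pair 1.

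**Figure D4:**
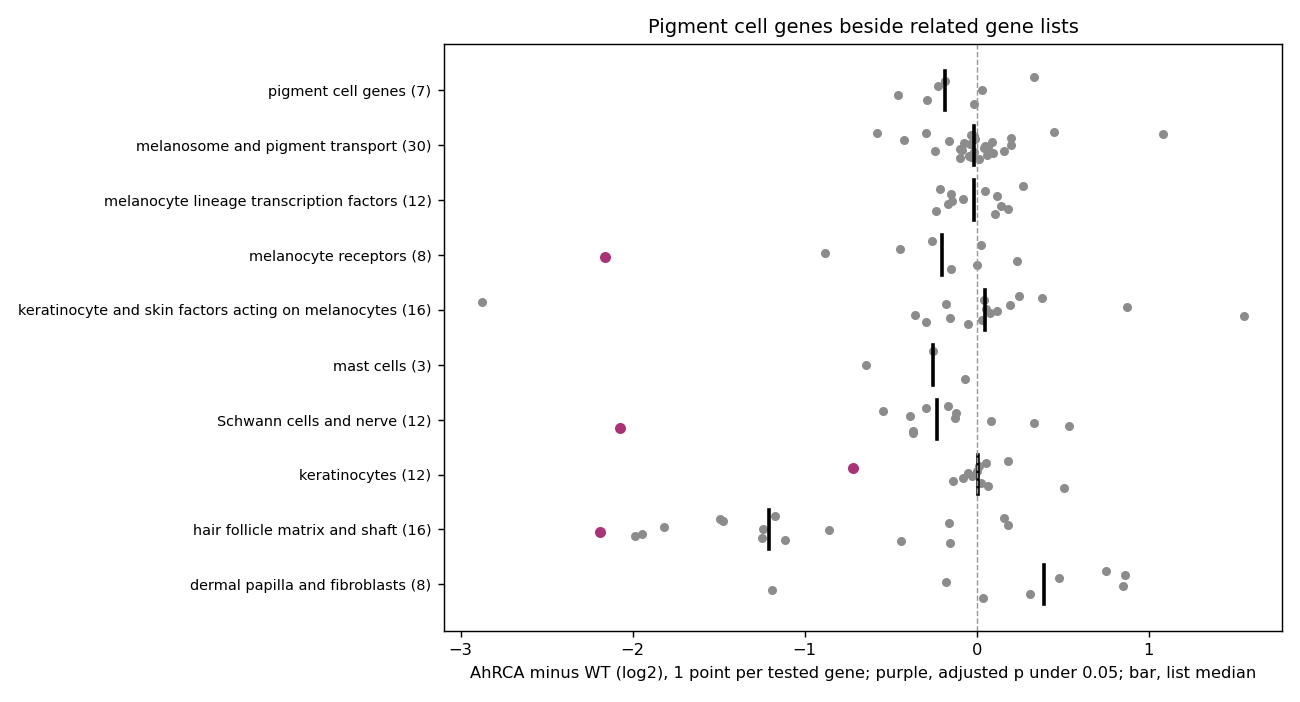
AhRCA minus WT on the log2 scale (x axis) for the tested genes of each list (number tested in parentheses), with list medians as black bars and genes at an adjusted p under 0.05 in purple. Pigment cell genes and melanosome genes lie near the dashed all-gene median, whereas most genes of the hair follicle list, which includes inner root sheath keratins, lie well below it.

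Hair matrix and shaft receive pigment in the follicle. Most genes of the list made for them had lower values in AhRCA, but it also holds inner root sheath keratins, Krt25, Krt27 and Krt71. The lower values were those of structural genes. The regulators Hoxc13, Msx2, Dlx3, Shh and Lef1 lay between -0.44 and 0.18 (limma, adjusted p between 0.780 and 0.998). Of 16 tested genes 14 had values below 0, 11 were lower without overlap (8.84% of all genes were), and the median was -1.21, with -1.22, -1.44 and -1.05 in pairs 1 to 3. The pigment cell genes had pair medians of -0.32, -0.28 and 0.16. Krt34, a hair keratin, fell by 2.19 on the log2 scale (SE 0.37; limma, adjusted p = 0.0414) and was the only 1 of the 16 to pass. Blocked on litter 10 of the 16 fell, where 2.81% of all genes did, and 0 rose. With slide as a block 0 of the 16 passed, although more genes passed over all, and Krt34 lost its call (adjusted p = 0.0537). The call of Krt34 held without WT replicate 1 and was lost when any other array was left out (adjusted p up to 0.131). The summed linear level of the list was 247 to 499 in WT and 113 to 188 in AhRCA, and that of the pigment cell genes was 61.8 to 90.1 and 70.0 to 83.9. Sums weigh bright probes most, here Krt71 (log2 levels from 5.47 to 7.73) and Dct (from 5.68 to 6.22). The pigment cell sum is mostly Dct and says little about the dimmer genes.

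Kitl is made by keratinocytes and dermal cells, and markers of both were read beside it. Of 12 keratinocyte genes Krt15, a basal keratin, fell by 0.72 (SE 0.13; limma, adjusted p = 0.0460, and 0.0534 blocked on litter), 0 rose, and the median was 0.0088. Leaving out any array but WT replicate 1 ended the call of Krt15 (adjusted p up to 0.194). Col17a1, another keratinocyte gene, went the other way, with 0.51 ± 0.099 (SE; limma, adjusted p = 0.0623) and no overlap. It passed with slide as a block (adjusted p = 0.0317) but not blocked on litter (0.0591), values given outside the rule for named genes. Of 8 tested genes of dermal papilla and fibroblasts 0 passed, and their median was 0.39, with -0.20, 0.25 and 0.92 in pairs 1 to 3. Col1a2, a collagen chain, had -1.19 ± 0.23 (adjusted p = 0.0622) and Sox18 0.86 ± 0.43 (adjusted p = 0.545). Col1a2 passed with slide as a block (adjusted p = 0.0464), under normexp (0.0423) and without WT replicate 3 (0.0497), and did not pass blocked on litter (0.0636). The summed linear level of the dermal list was 18.4 to 25.7 in WT and 19.5 to 19.7 in AhRCA. Most of this sum is the brightest probe, that of Dcn, with a log2 difference of -0.18 (limma, adjusted p = 0.847). The part of dermal cells in the Kitl values was not tested.

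The genes whose pattern over the 6 arrays lay nearest to that of Dct were Zfp646, Numa1, B3gat3, Mef2d and Lrrc14, with root mean square differences between 0.025 and 0.036 on the log2 scale after each gene was centred on its own mean. Each, like Dct, was lowest in WT 3, which follows from how these genes were picked. Nearest to Kitl were Rasgef1b, Rgs18, Timmdc1, Neurl1b and Mycn, with differences between 0.036 and 0.055. The estimates of these 5 genes lay between -0.33 and -0.20, and none passed (limma, adjusted p between 0.318 and 0.708). Since the genes were picked by pattern, their estimates were bound to lie near that of Kitl.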

How the data were processed

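Per the file headers, the deposited spot intensities are processed signals of Feature Extraction 10.7.3.1 (Agilent), with local background subtracted and spatial trends removed within each array, and no scaling between arrays. The authors' deposited table holds log2 values that equal the log2 intensities scaled per array, with each probe centred on its median over the arrays (slope 1.00 on all 6 arrays); column medians lay between -0.0710 and 0.0827. Its array scaling is otherwise not given in the sources used here. Intensity here was scaled to each array's 75th percentile and set to log2. Control spots (1639 of 45018) and 56 to 94 outlier spots per array were left out, and repeated spots were averaged. A probe counted as well above background where most of its spots were, and was kept with at least 3 such arrays; the brightest kept probe stood for a gene. Symbols came from unversioned RefSeq accessions (GRCm38.p6): 26690 of 41174 probes matched 1 symbol and 14484 none.

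Genotypes were compared with limma 3.58.1 in R 4.3.3 (two-sided, Benjamini-Hochberg, threshold 0.05), tested on simulated data. The number of arrays, 3 per group, limits the precision. Same-numbered arrays, littermates by the labels, had correlated deviations (0.337, 0.372 and 0.550 over 12821 genes). On slide 1, WT 2 with AhRCA 1 had 0.194 and WT 1 with AhRCA 2 had 0.150. The value of pair 3 cannot test the pairing, since slide and sex coincided with litter there. The pairing of the labels was kept. Named genes were the 10 pigment cell genes, up to 4 called genes of each list or otherwise the 2 with the largest change, 3 AhR targets and the 5 genes nearest to Dct and to Kitl; exceptions are marked. The genes and lists were chosen with earlier results of these data known. Normexp used the median signal, since the files used here carry no mean signal column.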

Additional observations from a re-analysis of the deposited data

How the results depend on the processing

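Of the 7 tested pigment cell genes 0 passed with the settings of the report (limma, 0 at an unadjusted p under 0.05) and in each of the 16 alternatives: other scalings, normexp, other filters, the mean of a gene's probes, the replicate block, slide as a block, slide 1 alone, 6 fits without 1 array and the authors' deposited table. Mitf came nearest, with an adjusted p of 0.0605 without WT replicate 3. Over all genes, 279 passed with these settings, 497 with the replicate block, 539 with slide as a block, 130 on slide 1 alone and 132 with no filter, and 62 to 195 without 1 array (leaving out WT 2 gave 62, WT 3 185, AhRCA 1 104, AhRCA 2 71 and AhRCA 3 151). The pairing changed no call of a pigment cell gene. Tyrp1, Mitf, Sox10, Slc45a2 and Kitl kept their direction in all 16 alternatives. Dct, whose estimate was near 0, turned to 0.016 under median scaling and lay between -0.20 and 0.075 without 1 array; Pmel turned to -0.093 on slide 1 alone and lay between -0.15 and 0.13 without 1 array. Without 1 array Hdc lay between -1.19 and 0.38 and Mrgprb2 between -0.57 and 0.082. With normexp the genotype by slide test called 0 genes in place of 1. The pattern of pairs 1 and 2 lower and pair 3 higher held in 4 of 7 genes under quantile normalization and in 5 under median scaling or normexp. The causes were not tested. Signal near background limits Tyr and the second probes of Mitf and Kitl.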
